A study of Mus musculus with 16 samples.

Results

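The whole mouse brain was compared with 3 of its parts, the cerebellum, the cortex and the olfactory bulb, in targeted RNA sequencing (CaptureSeq) of adult C57BL/6J mice. In CaptureSeq, probes pull chosen RNAs out of an RNA library before sequencing. The comparison rests on 8 of the 16 libraries of the series, namely 2 of whole brain and 6 of the subregions, since each tissue was captured once with each of 2 probe designs. The lncRNA design targets annotated and predicted long noncoding RNA (lncRNA) loci, and the splice junction design targets exon junctions of spliced genes. The members were chosen by their sample labels, and every gene model of the merged assembly was then placed above, within or below the range of the 3 subregions. All 8 libraries came from the same strain, the labels name no genetic change or treatment and call each one biological replicate 1, and the number of animals is not given. With 1 library per tissue and design there was no replicate check of any value.

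The brain is built of regions with their own neurons. The cerebellum holds granule and Purkinje cells, the cortex layered glutamatergic neurons, and the olfactory bulb mitral cells and interneurons that are renewed through life. The striatum, thalamus, hypothalamus, hippocampus, midbrain and brainstem were not dissected on their own. They hold the striatal projection neurons, the neurosecretory cells that make oxytocin and vasopressin, and the small nuclei that supply the brain with dopamine, serotonin, noradrenaline and acetylcholine. White matter tracts, which are dense in the brainstem, are wrapped in myelin made by oligodendrocytes. Mbp and Mobp encode myelin proteins and mark these cells.

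Values are normalised fragments, an estimate of the sequenced fragments of a gene model after the authors' scaling between libraries, and are not divided by gene length, so that they compare tissues for a gene and not genes with each other. Differences are on the log2(value + 1) scale, on which 1 is a 2-fold difference for well-covered genes and a larger fold for genes near 0, and "at least 2-fold" means a difference of at least 1 on this scale. Whole brain held 18296880 fragments in the lncRNA design, against 19367483 to 20355269 in the subregions, and 40761610 in the splice junction design, against 26858394 to 32627280. Spike-in RNA took 31.9% of the whole brain value in the lncRNA design, against 9.02% to 16.3% in the subregions, and 18.6% in the splice junction design, against 11.9% to 15.4%. Whole brain libraries had 11 cycles of amplification before capture and the subregions 10, and the spike-in mix was mix 1 in whole brain and cerebellum and mix 2 in cortex and olfactory bulb. The part of these differences in the results was not tested, and they cannot be told apart from tissue. The Y-linked gene Kdm5d was present in all 4 tissues, at 885 in whole brain, against 1526 in cerebellum, 1280.4 in cortex and 1826 in olfactory bulb in the splice junction design. In such bulk samples fewer cells of a type and less RNA per cell cannot be told apart.

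Most gene models lay inside or close to the range of the subregions. Of 10843 spliced gene models that averaged 10 or more across the 4 brain tissues in each design, 27 were at least 2-fold above the highest subregion in both designs, which is 0.249% of those examined. A further 138, or 1.27%, were at least 2-fold below the lowest subregion in both designs. Without a minimum fold, 1731 models (16.0%) lay above all 3 subregions and 937 (8.64%) below all 3 in both designs. The designs did not weigh the sides alike. In the lncRNA design 644 of the spliced models were at least 2-fold above and 474 at least 2-fold below, and in the splice junction design 33 were above and 355 below. Over all these models the median of whole brain minus the mean of the subregions was 0.59 with lncRNA capture and 0.03 with splice junction capture, so that a difference of 0.59 in the lncRNA design is that of the typical model. When the protein-coding models were given equal medians, a scaling added after seeing the data, 17 models were above and 202 below, and quantile normalization gave 50 above and 67 below. The count above also rests on which subregions are set against whole brain, with 137 without cerebellum, 359 without cortex and 98 without olfactory bulb, and the count below was 258 without cortex. At the edge of the 2-fold rule, the last model counted above was CT010467.1 at 1.01 and the first left out was Cfap57 at 0.998, by the smaller of the 2 designs.

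**Figure D1:**
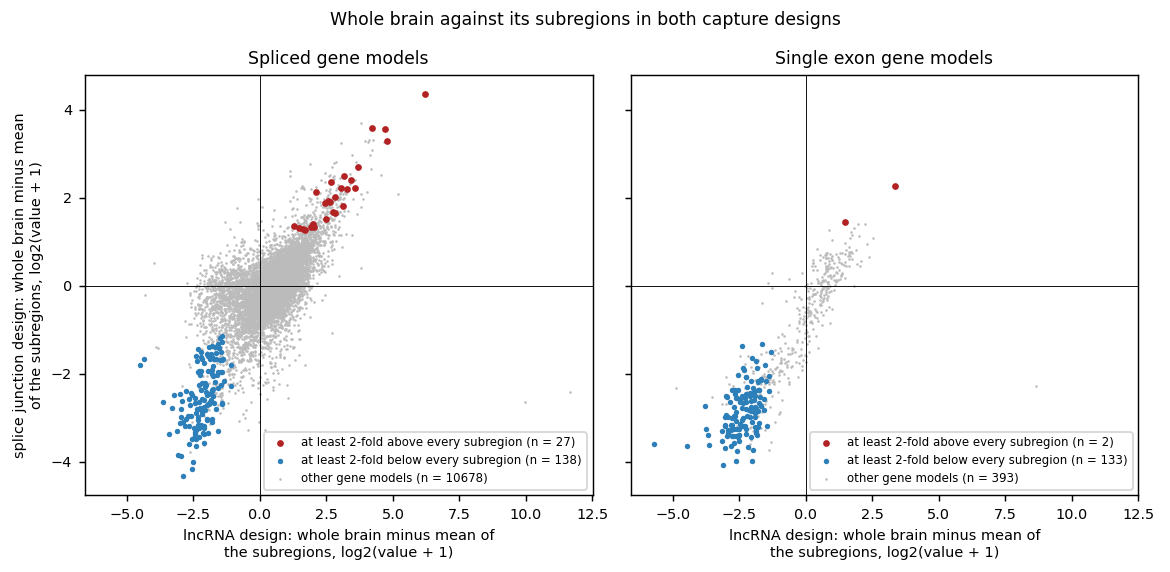
Each point is 1 gene model, with whole brain minus the mean of the 3 subregions in the lncRNA design on the horizontal axis and in the splice junction design on the vertical axis, both in log2(value + 1), and spliced models on the left and single exon models on the right. Among spliced models 27 are at least 2-fold above and 138 at least 2-fold below every subregion in both designs, and among single exon models 2 are above and 133 below. The points furthest right belong to loci listed at 0 in the cerebellum and olfactory bulb libraries of the lncRNA design.

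No gene passed a test across all genes. With limma on the values averaged over both designs, whole brain was set against the 3 subregions, whose spread is that between different tissues. It called 0 of 10843 spliced models higher (0.0%) and 0 lower (0.0%) at a Benjamini-Hochberg adjusted p under 0.05. At an unadjusted p under 0.05, 132 were higher and 320 lower, and the smallest adjusted p was 0.838. An exact permutation test of 1 tissue against 3 cannot give a p below 0.25, or below 0.5 where the one-sided p is doubled. The genes below are therefore described by their values, and "above" and "below" state only where whole brain lay relative to the 3 subregion libraries.

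Genes known from neurons of the striatum lay above the range. Of 20 genes known from striatal projection neurons, 19 had a gene model of their own and 13 passed the filter, and each of these 13 was above every subregion in both designs, 2 of them at least 2-fold, against 16.0% and 0.249% of all models. The filter takes the mean over all 4 tissues, so that a gene high in whole brain could pass through that value alone, and counts of members describe only those that passed. This holds for every list below. The median difference of the 13 from the mean of the subregions was 2.54 with lncRNA capture and 1.61 with splice junction capture. Summed over the list, the value in the splice junction design was 22452 in whole brain, against 4804 in cerebellum, 12659 in cortex and 7119 in olfactory bulb.

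Gng7 encodes a G protein gamma subunit that couples dopamine and adenosine receptors to adenylyl cyclase in striatal neurons. It had 648 in whole brain, against 56.4 in cerebellum, 308 in cortex and 86.2 in olfactory bulb in the splice junction design, and 182 in whole brain, against 15.8 in cerebellum, 54.7 in cortex and 8.29 in olfactory bulb in the lncRNA design. Rarb, a retinoic acid receptor, was the other list member past 2-fold in both designs, at 1191 in whole brain, against 403 in cerebellum, 562 in cortex and 431 in olfactory bulb in the splice junction design. Rgs9 speeds the switching off of G proteins behind dopamine receptors. Its value in the splice junction design was 4809 in whole brain, against 334 in cerebellum, 2180.0 in cortex and 1369 in olfactory bulb, and it lay 0.93 above the highest subregion with lncRNA capture and 1.14 with splice junction capture. The cortex came second to whole brain for each of Gng7, Rarb and Rgs9 in the splice junction design.

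The dopamine receptors behaved alike in direction. Drd2, whose RNA marks the indirect pathway neurons, had 540.0 in whole brain, against 9.58 in cerebellum, 110.1 in cortex and 39.7 in olfactory bulb in the splice junction design. It was below the filter in the lncRNA design, with 9.78 in whole brain. Drd1, which marks the direct pathway neurons, had 62.6 in whole brain, against 0 in cerebellum, 22.5 in cortex and 8.29 in olfactory bulb in the lncRNA design, and lay 1.44 and 0.80 above the highest subregion in the lncRNA and splice junction designs. Further members were Pde10a, a striatal phosphodiesterase (1.39 and 0.82), Adcy5, the main striatal adenylyl cyclase (1.41 and 0.57), and Ppp1r1b, the dopamine-regulated phosphatase inhibitor DARPP-32 (1.54 and 0.37). Pdyn, the precursor of dynorphin, was only 0.28 above the cortex in the splice junction design.

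Genes of the thalamus and habenula followed. Of 18 list genes 8 passed the filter in both designs. Of these, 5 lay above every subregion in both and 2, Synpo2 and Slc17a6, at least 2-fold, against 16.0% and 0.249% of all models. In the splice junction design alone, where 14 passed, 10 were above and 4 at least 2-fold above, against 20.5% and 1.07% of the 14446 spliced models that passed there. Slc17a6 encodes VGLUT2, the vesicular glutamate transporter of thalamic, hypothalamic and brainstem neurons. It had 70.9 in whole brain, against 11.9 in cerebellum, 19.3 in cortex and 15.8 in olfactory bulb in the splice junction design and 135 in whole brain, against 19.7 in cerebellum, 58.9 in cortex and 23.5 in olfactory bulb in the lncRNA design. The 3 subregion libraries stayed close together in the splice junction design. Slc17a7, the transporter VGLUT1 of cortical and cerebellar granule neurons, was by contrast highest in the cortex, at 13654 in whole brain, against 7966 in cerebellum, 20659 in cortex and 8091 in olfactory bulb.

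Shox2 and Lhx9 are homeobox transcription factors of the developing and adult thalamus. Shox2 had 76.7 in whole brain, against 0 in cerebellum, 1.12 in cortex and 0.405 in olfactory bulb in the splice junction design, where 3 fragments correspond to 1.15 in cerebellum, 1.12 in cortex and 1.21 in olfactory bulb, so that no subregion exceeded 3 fragments. Lhx9 had 794 in whole brain, against 39.4 in cerebellum, 18.2 in cortex and 91.2 in olfactory bulb in the lncRNA design and 19.1 in whole brain, against 1.53 in cerebellum, 0 in cortex and 3.24 in olfactory bulb in the splice junction design. Both lay over 4-fold above the highest subregion in both designs, outside the counts because their mean in 1 design was below 10. Synpo2, an actin-binding protein, had 3753 in whole brain, against 383 in cerebellum, 262 in cortex and 803 in olfactory bulb in the lncRNA design, and Tcf7l2, a transcription factor of thalamic neurons and of oligodendrocytes, 60.7 in whole brain, against 1.31 in cerebellum, 7.02 in cortex and 8.29 in olfactory bulb. In the splice junction design Tcf7l2 was close to the olfactory bulb, 0.20 above it. Prkcd, a kinase shared by thalamus and Purkinje cells, stood 0.05 above cerebellum in that design.

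**Figure D2:**
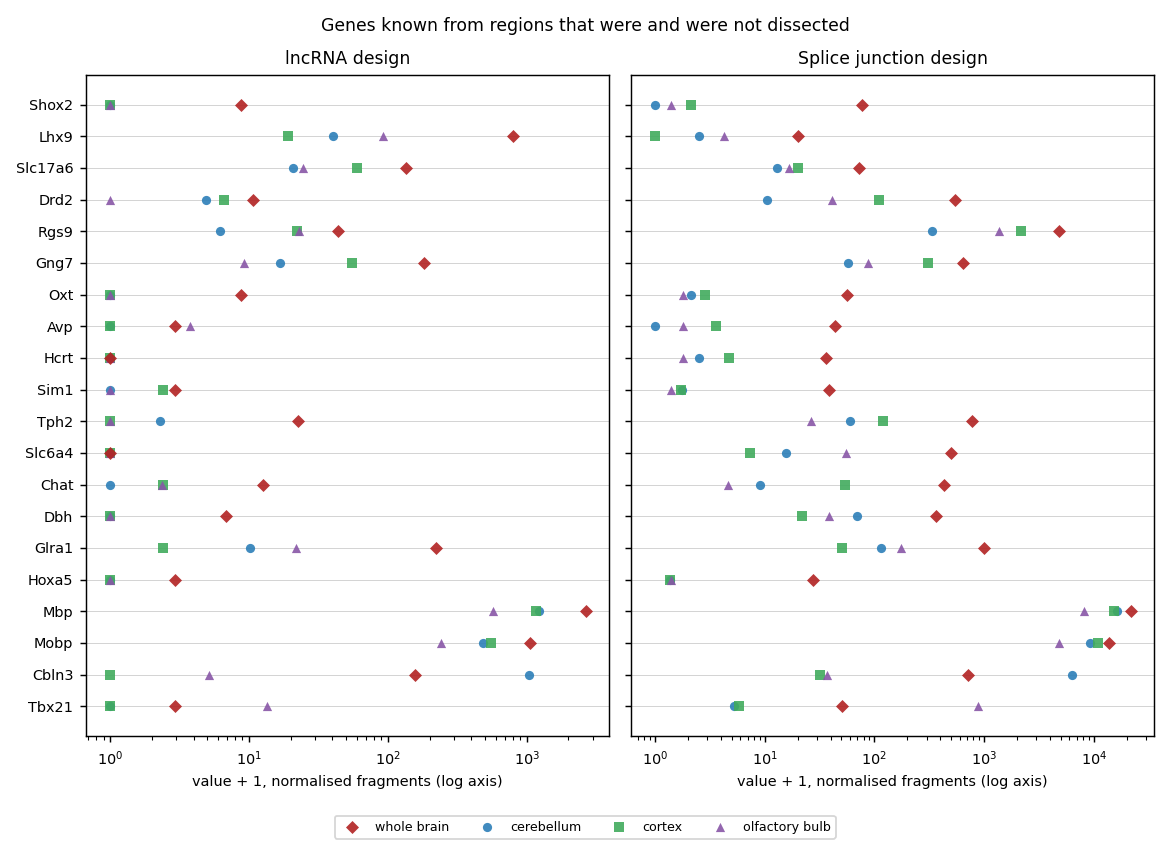
Values + 1 in normalised fragments, on a log axis, of 20 genes in whole brain (red diamonds), cerebellum (blue circles), cortex (green squares) and olfactory bulb (purple triangles), with 1 library per point and the lncRNA design on the left. In the splice junction design whole brain is rightmost for the 18 genes from Shox2 to Mobp, and lies left of the region each marks for Cbln3 and Tbx21. The genes were picked by hand from the lists and do not stand for all members. Trh, Gal, Hdc, Th, Slc6a3 and Slc6a5, for which a subregion was above whole brain in that design, are not shown.

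Of 25 hypothalamic genes 1 passed the filter in both designs and lay within the range. In the splice junction design alone 8 passed, 4 of them above every subregion and 3 at least 2-fold above, against 20.5% and 1.07% of all models there. These 3, Oxt, Avp and Hcrt, passed only through whole brain, since every subregion was below 10 for each. Their count is therefore not comparable with the 1.07%. Oxt, the oxytocin precursor, had 55.3 in whole brain, against 1.15 in cerebellum, 1.86 in cortex and 0.81 in olfactory bulb. Avp, the vasopressin precursor, had 43.1 in whole brain, against 0 in cerebellum, 2.60 in cortex and 0.81 in olfactory bulb, and Hcrt, the orexin precursor of lateral hypothalamic neurons, 35.6 in whole brain, against 1.53 in cerebellum, 3.72 in cortex and 0.81 in olfactory bulb. Cortex was the highest subregion for these 3 peptides, far below whole brain. Sim1, a transcription factor required for the neurons that make oxytocin and vasopressin, had 37.9 in whole brain, against 0.767 in cerebellum, 0.744 in cortex and 0.405 in olfactory bulb. Pomc, the precursor of melanocortins, had 18.5 in whole brain, against 0.767 in cerebellum, 1.86 in cortex and 2.83 in olfactory bulb. In the lncRNA design whole brain held 7.83 of Oxt and 1.96 of Avp, and Hcrt was at 0 in all 4 tissues.

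Other members of the list lay within the range. Trh had 381 in whole brain, against 9.58 in cerebellum, 30.9 in cortex and 1895 in olfactory bulb, and Gal 82.2 in whole brain, against 15.7 in cerebellum, 4.09 in cortex and 230.0 in olfactory bulb, so that the olfactory bulb was highest for both. Hdc, which makes histamine, had 352 in whole brain, against 452 in cerebellum, 68.1 in cortex and 65.6 in olfactory bulb. Agrp and Kiss1 share their gene models with neighbouring genes and have no value of their own here.

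Oxt and Avp are neighbours on chromosome 2, transcribed toward each other. The 250 bases before their RefSeq starts (build GRCm38.p6), and those of Tph2, are shown because these 3 genes, of hypothalamic peptides and serotonin synthesis, were at least 2-fold above every subregion in the splice junction design. Capitals mark each match to TATAAA or CATAAA, which do not overlap each other, searched on both strands.

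Oxt (chr2:130575919-130576168, plus strand): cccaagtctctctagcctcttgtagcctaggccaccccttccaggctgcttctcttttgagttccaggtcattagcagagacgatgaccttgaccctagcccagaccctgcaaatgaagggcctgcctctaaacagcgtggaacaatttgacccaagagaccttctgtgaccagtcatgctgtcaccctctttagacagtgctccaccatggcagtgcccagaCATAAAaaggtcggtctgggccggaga

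Avp (chr2:130582589-130582838, minus strand): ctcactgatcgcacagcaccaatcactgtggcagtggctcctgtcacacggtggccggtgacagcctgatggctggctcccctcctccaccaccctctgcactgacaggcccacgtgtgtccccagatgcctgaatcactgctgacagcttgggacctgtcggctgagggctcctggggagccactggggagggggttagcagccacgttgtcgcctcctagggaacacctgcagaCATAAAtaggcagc

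Tph2 (chr10:115185023-115185272, minus strand): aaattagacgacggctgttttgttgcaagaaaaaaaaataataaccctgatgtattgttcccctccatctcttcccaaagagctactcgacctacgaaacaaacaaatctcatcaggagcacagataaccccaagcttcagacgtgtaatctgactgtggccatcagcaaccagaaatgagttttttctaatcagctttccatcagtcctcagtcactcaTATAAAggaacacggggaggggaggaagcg

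Oxt and Avp each held 1 CATAAA on the gene strand and Tph2 held 1 TATAAA, at 27, 14 and 30 bases before the RefSeq start. On the gene strand CATAAA stood in 5.98% and TATAAA in 7.59% of the 32851 RefSeq promoter windows of the same length. On either strand the shares were 10.8% and 12.4%. These matches describe the sequence only.

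Genes of serotonin, noradrenaline and acetylcholine neurons were low in the lncRNA design and are given for the splice junction design. Tph2, the enzyme that starts serotonin synthesis in the brain, had 779 in whole brain, against 59.4 in cerebellum, 118 in cortex and 25.5 in olfactory bulb. Slc6a4, the serotonin transporter, had 498 in whole brain, against 14.6 in cerebellum, 6.32 in cortex and 54.7 in olfactory bulb. Of the 8 serotonin genes 4 passed in that design, and these 4 were above every subregion, 2 of them, Tph2 and Slc6a4, at least 2-fold, against 20.5% and 1.07% of all models there. Serotonin neurons have their cell bodies in the raphe nuclei of the brainstem and send axons throughout the brain. Which region gave the whole brain values was not tested.

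Of 16 genes of brainstem noradrenergic, cholinergic and glycine neurons 11 passed in the splice junction design, and 10 lay above every subregion, 8 of them at least 2-fold, against 20.5% and 1.07% of all models there. Dbh, which makes noradrenaline, had 362 in whole brain, against 69.0 in cerebellum, 20.8 in cortex and 37.7 in olfactory bulb, and Slc6a2, the noradrenaline transporter, 244 in whole brain, against 61.3 in cerebellum, 4.83 in cortex and 2.83 in olfactory bulb. Chat, the enzyme of acetylcholine synthesis, had 431 in whole brain, against 8.05 in cerebellum, 52.8 in cortex and 3.64 in olfactory bulb. Slc5a7, the choline transporter of the same neurons, had 480.1 in whole brain, against 23.4 in cerebellum, 62.5 in cortex and 15.8 in olfactory bulb. Cortex was the second highest tissue for Chat and Slc5a7, and cerebellum for Dbh and Slc6a2.

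Glra1, a subunit of the inhibitory glycine receptor of brainstem and spinal cord, was among the 3 spliced models that passed and lay furthest above the range. It had 993 in whole brain, against 114 in cerebellum, 49.5 in cortex and 175 in olfactory bulb in the splice junction design and 221 in whole brain, against 9.19 in cerebellum, 1.40 in cortex and 20.7 in olfactory bulb in the lncRNA design. The glycine transporter Slc6a5 was the exception in this list. Its value was 1236 in whole brain, against 1405 in cerebellum, 9.30 in cortex and 11.3 in olfactory bulb in the splice junction design, highest in cerebellum, whose Golgi interneurons release glycine.

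Of 4 midbrain dopamine genes that passed 1 was above every subregion in both designs, against 16.0% of all models. The olfactory bulb is known to have dopamine neurons of its own. Th, the first enzyme of dopamine synthesis, had 529 in whole brain, against 163 in cerebellum, 63.2 in cortex and 4303 in olfactory bulb in the splice junction design, and the dopamine transporter Slc6a3 445 in whole brain, against 8.43 in cerebellum, 5.58 in cortex and 681 in olfactory bulb. Whole brain was above cerebellum and cortex but below the olfactory bulb for both genes. Slc18a2, the vesicle transporter shared by all monoamine neurons, was above every subregion in both designs, by 0.75 with lncRNA capture and 0.82 with splice junction capture. Ddc, the decarboxylase of dopamine and serotonin neurons, had 1386 in whole brain, against 378 in cerebellum, 431 in cortex and 699 in olfactory bulb in the splice junction design.

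Hox genes, which are known to mark hindbrain and spinal cord, were detected in whole brain at low levels and hardly at all in the subregions. None of the 12 with a model of their own passed the filter, so that they are outside the counts. In the splice junction design, Hoxa5 had 26.3 in whole brain, against 0.383 in cerebellum, 0.372 in cortex and 0.405 in olfactory bulb, Hoxb5 11.6 in whole brain, against 0.383 in cerebellum, 0 in cortex and 0 in olfactory bulb and Hoxa4 10.4 in whole brain, against 0.383 in cerebellum, 0 in cortex and 0 in olfactory bulb. Hoxb6 was at 0 in all 3 subregions and had 6.66 in whole brain, which is at least 5.48-fold higher, with 3 fragments in the library where they weigh most taken as the upper limit of 0. In the lncRNA design Hoxb2 had 174 in whole brain, against 5.25 in cerebellum, 0 in cortex and 0 in olfactory bulb.

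By a rule set after values had been seen, 73 spliced models had at least 10 fragments in whole brain and at most 3 in each subregion in the splice junction design, and 51 of them were protein-coding. The rule was put to all 27520 spliced models, without the filter. It gave 36 models for cerebellum, 22 for cortex and 89 for olfactory bulb, each against the other 3 brain tissues. These counts are not on an equal footing, since the whole brain library was the deepest. There 3 fragments correspond to 0.868, against 1.12 to 1.21 in the subregions, so that whole brain meets the rule more easily. Besides Shox2, Sim1 and 6 Hox genes of the list, the 73 held Prdm12, Pax7 and Tbx20, transcription factors of hindbrain, midbrain and spinal neurons, and Rln3, the relaxin-3 peptide of a pontine nucleus. The 73 also held genes outside this kind, among them Ckm, Krt87, Marco, Apoc2 and Vmn2r27. Prdm12 had 14.2 in whole brain and 0 in each subregion, at least 11.7-fold higher by the same limit. In the opposite direction, 65 spliced models had at least 10 fragments in every subregion and at most 3 in whole brain, of which 18 were protein-coding.

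Hippocampal genes were mixed. Of 11 genes 10 passed in the splice junction design, where 5 lay above every subregion and 2, Lct and Spink8, at least 2-fold, against 20.5% and 1.07% of all models there. Spink8, known from pyramidal cells of hippocampal field CA1, had 98.4 in whole brain, against 4.60 in cerebellum, 16.4 in cortex and 3.24 in olfactory bulb. Prox1, a transcription factor of dentate granule cells, was highest in cerebellum, at 184 in whole brain, against 292 in cerebellum, 84.0 in cortex and 31.2 in olfactory bulb. Of the 4 that passed in both designs none was above the range in both.

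Furthest above among spliced models with a symbol that passed the filter was Pax8, a paired box transcription factor (chr2:24420560-24475599, GRCm38, minus strand). It passed only through whole brain, since every subregion was below 10 in both designs. In the lncRNA design it had 20 fragments in whole brain. Pax8 had 39.1 in whole brain, against 2.63 in cerebellum, 0 in cortex and 0 in olfactory bulb in the lncRNA design and 35.0 in whole brain, against 3.83 in cerebellum, 0.744 in cortex and 2.43 in olfactory bulb in the splice junction design. Its level in kidney, where Pax8 is a known lineage factor, was 2744 in the splice junction design. Gm13415, a noncoding transcript on the opposite strand (chr2:24440418-24486855, overlapping Pax8 over 35182 bases), had 35.2 in whole brain, against 3.94 in cerebellum, 0 in cortex and 4.15 in olfactory bulb in the lncRNA design. It did not pass the filter and is named after its values were seen. The libraries were stranded, and both models were high in the same tissue.

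B230323A14Rik, an antisense lncRNA (chr9:69758740-69830862, plus strand), was second among those that passed. In the splice junction design it too passed only through whole brain, with 137 fragments there. It had 683 in whole brain, against 63.0 in cerebellum, 1.40 in cortex and 4.15 in olfactory bulb in the lncRNA design and 39.6 in whole brain, against 4.60 in cerebellum, 0.372 in cortex and 0 in olfactory bulb in the splice junction design. Its start overlaps over 2201 bases the gene model of Foxb1 (chr9:69757710-69760940, minus strand), a forkhead factor of diencephalon and brainstem. Foxb1, named after its values were seen, had 15.7 in whole brain, against 1.31 in cerebellum, 0 in cortex and 0 in olfactory bulb in the lncRNA design and was at 0 in the splice junction design.

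**Figure D3:**
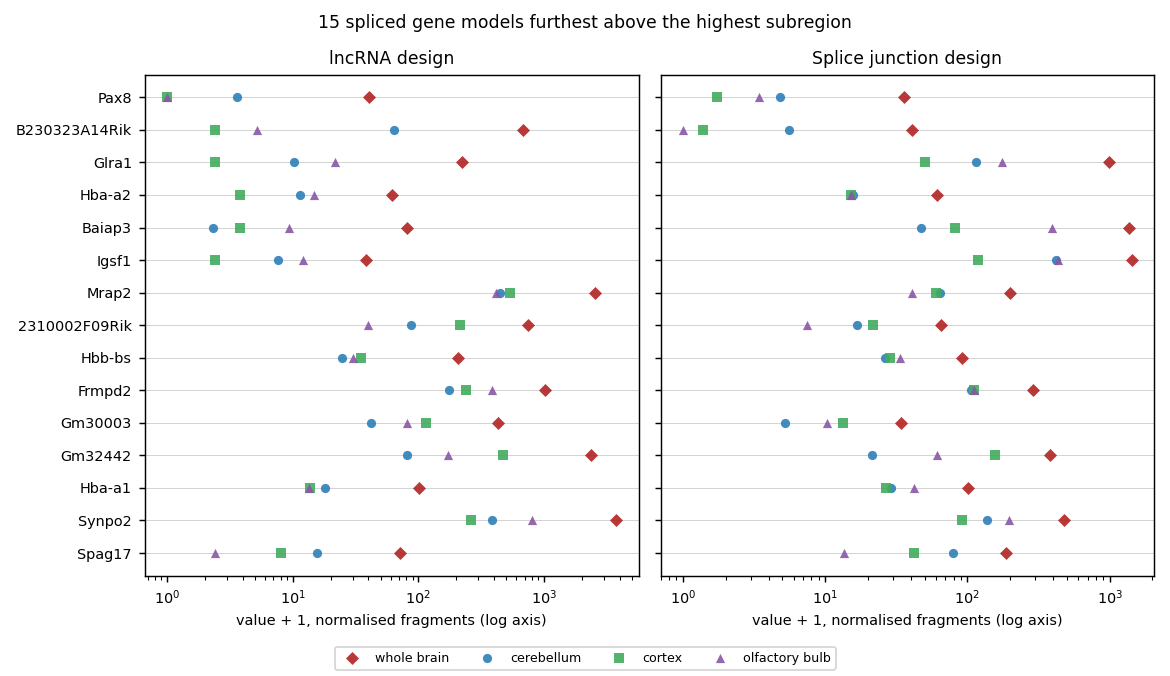
Values + 1 in normalised fragments (log axis) of the 15 spliced gene models with a symbol that lay furthest above the highest subregion in both designs, with 1 library per point and the symbols as in the key. Whole brain (red diamonds) is the rightmost point in every row of both panels, and Pax8 at the top is 3.47 and 2.90 above the highest subregion in the lncRNA and splice junction designs.

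Other noncoding RNAs above the range were 2310002F09Rik, Gm30003, Gm32442 and Rmst. Rmst, a lncRNA known from midbrain and neural stem cells that binds the factor SOX2, had 63496 in whole brain, against 13346 in cerebellum, 13684 in cortex and 8143 in olfactory bulb in the lncRNA design and 3184 in whole brain, against 1368 in cerebellum, 1248 in cortex and 801 in olfactory bulb in the splice junction design. Gm32442 had 2387 in whole brain, against 80.1 in cerebellum, 473 in cortex and 170.0 in olfactory bulb in the lncRNA design. Of 808 noncoding spliced models that passed, 8 (0.990%) were above by the 2-fold rule and 76 (9.41%) below, whereas of 9922 protein-coding models 18 (0.181%) were above and 51 (0.514%) below. The 5 spliced models without a GENCODE gene that lay furthest above did so by 0.03 to 0.39 in the design with the smaller difference, and none was at least 2-fold above.

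The remaining protein-coding models among the 15 furthest above have varied roles. Baiap3, a dense-core vesicle protein of neuroendocrine neurons, had 1370.4 in whole brain, against 46.0 in cerebellum, 81.1 in cortex and 392 in olfactory bulb in the splice junction design, so that the olfactory bulb was second. Mrap2, an accessory protein of the melanocortin-4 receptor in hypothalamus, had 2552 in whole brain, against 449 in cerebellum, 537 in cortex and 413 in olfactory bulb in the lncRNA design. Igsf1, a membrane protein whose loss causes central hypothyroidism, had 1436 in whole brain, against 417 in cerebellum, 119 in cortex and 429.6 in olfactory bulb in the splice junction design. Frmpd2 lay 1.40 and 1.37 above the highest subregion in the lncRNA and splice junction designs. Htr2c, the serotonin 2C receptor of choroid plexus and many neurons, was counted above as well, at 1806 in whole brain, against 773 in cerebellum, 547 in cortex and 269.7 in olfactory bulb in the splice junction design.

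Mbp and Mobp lay above the range in both designs, but not by 2-fold in both. Mbp had 2651 in whole brain, against 1218 in cerebellum, 1176 in cortex and 573 in olfactory bulb in the lncRNA design and 21698 in whole brain, against 16168 in cerebellum, 15409.5 in cortex and 8106 in olfactory bulb in the splice junction design. Mobp had 1055 in whole brain, against 484 in cerebellum, 550.1 in cortex and 240.4 in olfactory bulb in the lncRNA design and 13763 in whole brain, against 9253 in cerebellum, 10854 in cortex and 4794 in olfactory bulb in the splice junction design. Whole brain was highest and olfactory bulb lowest for both genes in both designs, and both differences from the next tissue in the splice junction design, 0.42 for Mbp and 0.34 for Mobp, were under 2-fold. With limma the average over both designs gave a log2 difference of 1.14 ± 0.57 (SE) for Mbp and 1.10 ± 0.60 for Mobp, each with an adjusted p of 0.838.

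The wider list of 22 oligodendrocyte and myelin genes moved in the same range. Of 17 that passed, 11 were above every subregion in both designs (16.0% of all models) and 0 at least 2-fold. The median difference was 1.14 with lncRNA capture and 0.53 with splice junction capture. Housekeeping genes were close to this, with 6 of 10 above in both designs and 0 at least 2-fold. Their medians were 1.08 and 0.42, so that a rise of this size was not particular to myelin genes. The summed value in the splice junction design was 102411 in whole brain, against 81924 in cerebellum, 83834 in cortex and 47446 in olfactory bulb. Opalin was highest in cortex in both designs, at 809 in whole brain, against 659 in cerebellum, 1021 in cortex and 328 in olfactory bulb in the splice junction design. Olig1, a transcription factor of the oligodendrocyte lineage and a single exon gene, was 1 of the 2 single exon models at least 2-fold above, with 72.4 in whole brain, against 23.6 in cerebellum, 32.3 in cortex and 22.1 in olfactory bulb in the lncRNA design and 32.1 in whole brain, against 11.9 in cerebellum, 14.5 in cortex and 8.10 in olfactory bulb in the splice junction design. Pdgfra, the receptor that marks oligodendrocyte precursors, was level with the cortex in the splice junction design, at 2169 in whole brain, against 919 in cerebellum, 2189.7 in cortex and 1697 in olfactory bulb.

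Other glia were less uniform. Of 9 microglia genes that passed, 8 were above every subregion in both designs and 0 at least 2-fold, against 16.0% and 0.249% of all models. Csf1r, the receptor on which microglia depend, had 4337 in whole brain, against 1180.4 in cerebellum, 3763 in cortex and 3030.2 in olfactory bulb in the splice junction design. The cerebellum was lowest for each of the 11 measured microglia genes in that design, and the summed value was 10165 in whole brain, against 2668 in cerebellum, 8419 in cortex and 7003 in olfactory bulb. Of 14 astrocyte genes 6 were above in both designs, against 16.0% of all models. Gfap had 9231 in whole brain, against 4007 in cerebellum, 3693 in cortex and 8779 in olfactory bulb, while S100b, also strong in Bergmann glia, was highest in cerebellum, at 2692 in whole brain, against 5704 in cerebellum, 1479.7 in cortex and 1588 in olfactory bulb. Of 9 endothelial genes that passed 1 was above in both designs, near the share of all models (16.0%). Of the 9, 3 were below every subregion in the splice junction design, a share near the 23.1% of all models there. Slco1a4, a blood-brain barrier transporter, had 4819 in whole brain, against 8837 in cerebellum, 8357 in cortex and 8523 in olfactory bulb.

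Of 5 red blood cell genes 3 passed in both designs, and each of these was at least 2-fold above, against 0.249% of all models. Hbb-bs, the adult beta globin, had 207 in whole brain, against 23.6 in cerebellum, 33.7 in cortex and 29.0 in olfactory bulb in the lncRNA design and 90.9 in whole brain, against 25.3 in cerebellum, 27.5 in cortex and 32.8 in olfactory bulb in the splice junction design. Hba-a1 had 100.1 in whole brain, against 28.0 in cerebellum, 25.7 in cortex and 40.9 in olfactory bulb and Hba-a2 60.5 in whole brain, against 14.6 in cerebellum, 14.1 in cortex and 14.2 in olfactory bulb in the splice junction design. Hba-a1 and Hba-a2 are near-identical copies, so that the split of fragments between them is uncertain. How much blood each dissected tissue held is not given, and its part in other genes was not tested.

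Kl and Folr1, genes of the choroid plexus, were high in cerebellum as well as in whole brain. Kl had 1883 in whole brain, against 2066 in cerebellum, 165 in cortex and 116 in olfactory bulb and Folr1, a folate receptor, 225 in whole brain, against 296 in cerebellum, 15.2 in cortex and 4.05 in olfactory bulb in the splice junction design. Ttr was not analysed here. Tmem212, a gene of ependymal cells, had 239 in whole brain, against 102 in cerebellum, 26.4 in cortex and 8.91 in olfactory bulb and Foxj1, the master regulator of motile cilia, 88.8 in whole brain, against 49.5 in cerebellum, 25.7 in cortex and 54.7 in olfactory bulb. Spag17, a protein of the ciliary central pair, had 187 in whole brain, against 78.2 in cerebellum, 40.9 in cortex and 12.6 in olfactory bulb and was among the 15 furthest above. Of 6 meningeal genes that passed 1 was above in both designs, near the share of all models (16.0%). The collagen Col1a1 was highest in olfactory bulb, at 351 in whole brain, against 108 in cerebellum, 94.1 in cortex and 1081 in olfactory bulb.

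Markers of the dissected regions lay mostly between the subregions. Of 15 cerebellar genes that passed 14 lay within the range in both designs, of 13 cortical genes 12, and of 11 olfactory bulb genes 11, and 0 of these 39 genes was above in both designs. By comparison 2472 of all 10843 spliced models lay within in both. Gabra6, a receptor subunit of cerebellar granule cells, had 5803 in whole brain, against 62247 in cerebellum, 231 in cortex and 300.4 in olfactory bulb in the splice junction design. Lamp5, a membrane protein of cortical neurons, had 540.2 in whole brain, against 10.4 in cerebellum, 1194 in cortex and 219 in olfactory bulb, and Tbx21, a mitral cell factor, 50.1 in whole brain, against 4.22 in cerebellum, 4.83 in cortex and 875 in olfactory bulb in the splice junction design. For these 3 genes whole brain lay between the region each marks and the other two. Pbx3, a homeobox gene of olfactory bulb interneurons, had 35.0 in whole brain, against 69.0 in cerebellum, 30.9 in cortex and 1519 in olfactory bulb in the splice junction design, so that whole brain was close to cortex.

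Markers of tissues next to the brain were examined because a dissection could include them, and their part in the results was not tested. Among 11 pituitary genes, of which 1 passed in both designs, Gh had 0.289 in whole brain, against 10.7 in cerebellum, 5.58 in cortex and 23.9 in olfactory bulb and Prl 0.579 in whole brain, against 2.68 in cerebellum, 2.60 in cortex and 8.50 in olfactory bulb in the splice junction design, so that whole brain was lowest for both, and Pou1f1 was at 0 in whole brain in both designs. Cga, the shared alpha subunit of pituitary hormones, went the other way, at 6.66 in whole brain, against 0.383 in cerebellum, 0.372 in cortex and 1.21 in olfactory bulb. The pineal enzyme Asmt was at 0 in all 4 tissues in both designs, and Aanat had 0.579 in whole brain, against 0.767 in cerebellum, 1.49 in cortex and 1.62 in olfactory bulb in the splice junction design. The liver genes Alb and Serpina1a were at 0 in all 4 brain tissues in both designs.

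Below the range the leading models were mostly noncoding. Of the 15 spliced models with a symbol furthest below, 12 are annotated as antisense RNAs, namely 4933413L06Rik, 5031415H12Rik, 4930439A04Rik, 4933411O13Rik, Gm26854, 4933423P22Rik, Pitpnm2os1, 9030204H09Rik, Pcsk2os2, Rsf1os1, Kcnq1ot1 and Gm15520, and the others are the protein-coding Gm5751, the pseudogene Gm8493 and Mir124a-1hg. By the design with the smaller difference they lay between -2.10 (Mir124a-1hg) and -2.92 (4933413L06Rik) from the lowest subregion. Of all 336 antisense models that passed, 51 (15.2%) were below by the 2-fold rule, against 1.27% of all spliced models, and their median difference was -0.10 with lncRNA capture and -0.92 with splice junction capture.

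4933413L06Rik had 45.0 in whole brain, against 347 in cerebellum, 382 in cortex and 481 in olfactory bulb in the lncRNA design and 3.76 in whole brain, against 36.4 in cerebellum, 39.4 in cortex and 66.0 in olfactory bulb in the splice junction design. Pcsk2os2, antisense to the prohormone convertase gene Pcsk2, had 311 in whole brain, against 1696 in cerebellum, 3344 in cortex and 1466 in olfactory bulb in the lncRNA design. Whole brain was lowest for both, as the ranking by distance below the lowest subregion requires. Mir124a-1hg, the host transcript of the neuronal microRNA miR-124, had 9161 in whole brain, against 79420.0 in cerebellum, 39309 in cortex and 42688 in olfactory bulb in the lncRNA design and 4.92 in whole brain, against 109.6 in cerebellum, 50.9 in cortex and 46.6 in olfactory bulb in the splice junction design. Gm5751 was below in both designs only with its transcripts of 1 exon included. With its spliced transcripts alone it stood 2.01 above the lowest subregion in the design where it was higher, and the other design is not given.

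Kcnq1ot1 is the lncRNA that silences an imprinted domain in cis and stays at its locus in the nucleus. It had 7592 in whole brain, against 34035 in cerebellum, 36299.8 in cortex and 42628 in olfactory bulb in the lncRNA design and 21.4 in whole brain, against 224 in cerebellum, 228 in cortex and 272 in olfactory bulb in the splice junction design. Because it stood out, 14 lncRNAs known from the nucleus were collected after values had been seen, which supports nothing on its own. Of the 12 with a model of their own 8 were below every subregion in both designs (8.64% of all models) and 5 at least 2-fold (1.27% of all models), with a median difference of -1.11 with lncRNA capture and -1.93 with splice junction capture. All models are mostly protein-coding. Among the 808 noncoding spliced models that passed, 9.41% were at least 2-fold below, with medians of 0.27 and -0.54.

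Meg3, an imprinted lncRNA abundant in neurons, had 41898 in whole brain, against 154297 in cerebellum, 327939 in cortex and 242112 in olfactory bulb in the lncRNA design and 28.1 in whole brain, against 222 in cerebellum, 421 in cortex and 264 in olfactory bulb in the splice junction design. Neat1, the scaffold of nuclear paraspeckles, had 111 in whole brain, against 498 in cerebellum, 341 in cortex and 369 in olfactory bulb in the splice junction design. Malat1, of nuclear speckles, had 385 in whole brain, against 2159.6 in cerebellum, 1727 in cortex and 2304 in olfactory bulb in the splice junction design. In the lncRNA design Malat1 had 314651 in whole brain and 963166 in cortex and was listed at 0 in cerebellum and olfactory bulb, although Malat1 was abundant in the same tissues with splice junction capture, so that no difference is given there. The median of the list in that design includes Malat1 with these values. Not every nuclear RNA was below the range. Tug1 had 119114 in whole brain, against 64165 in cerebellum, 72135 in cortex and 64326 in olfactory bulb in the lncRNA design. In the splice junction design 0 of the 12 were above every subregion, Tug1 included. Airn and Miat lay within the range in both designs. Averaged over both designs they were nonetheless at -1.52 and -0.56 from the mean of the subregions.

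**Figure D4:**
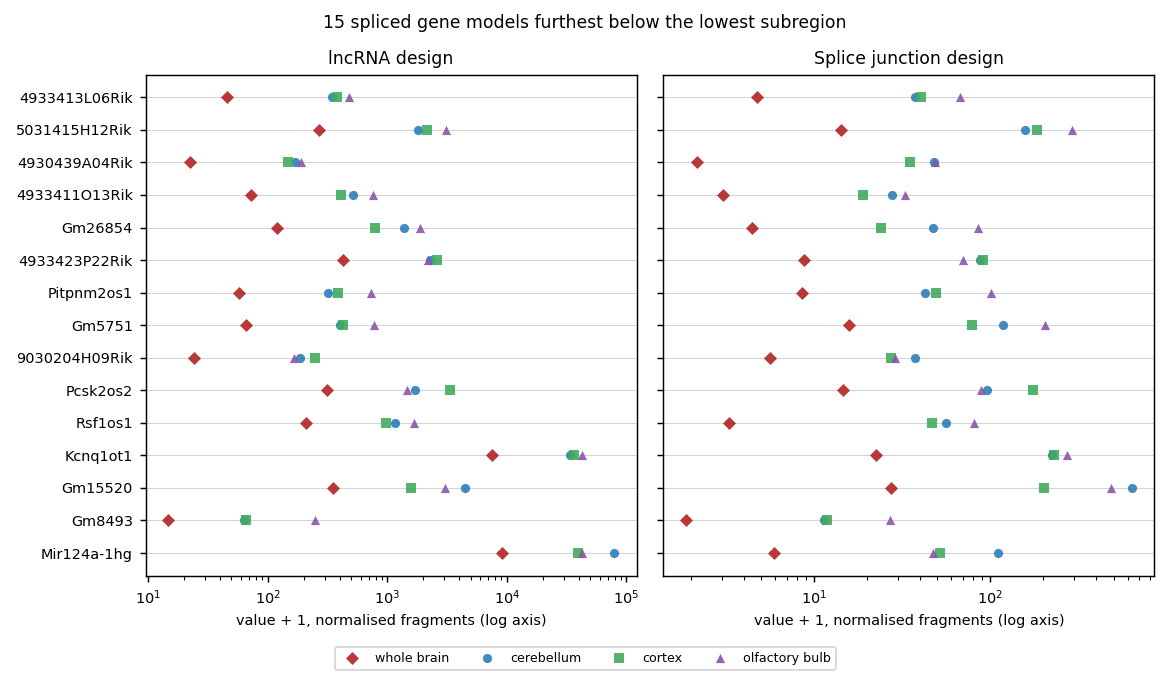
Values + 1 in normalised fragments (log axis) of the 15 spliced gene models with a symbol that lay furthest below the lowest subregion in both designs, with 1 library per point. Whole brain (red diamonds) is the leftmost point in every row of both panels, while the 3 subregions lie close together in most rows, as for Kcnq1ot1 with 21.4 in whole brain against 224 to 272 in the splice junction design.

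Of the 51 protein-coding models below the range, 6 are named here after their values were seen, and no list of their kind was counted. The 6 were picked by kind and do not stand for the 51, which also held others such as Ube2v2. Clk1, a kinase that phosphorylates splicing factors and whose own transcripts are partly held in the nucleus with introns, had 31.3 in whole brain, against 227 in cerebellum, 106 in cortex and 196 in olfactory bulb in the splice junction design and 23.5 in whole brain, against 181 in cerebellum, 135 in cortex and 198 in olfactory bulb in the lncRNA design. Rsrp1, an arginine and serine rich protein, had 13.9 in whole brain, against 70.2 in cerebellum, 55.0 in cortex and 88.3 in olfactory bulb in the splice junction design. Also counted below were Clk4, a related kinase (-1.05 and -1.68), the splicing factor Rbm39 (-1.78 and -1.46), Luc7l2 (-2.14 and -1.18) and Snrnp70, of the U1 particle (-1.50 and -1.23), with the lncRNA design first. Gene models sum all transcripts, those that keep an intron included, and the part of such transcripts in these values was not tested.

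Immediate early genes, which neurons switch on within minutes of activity, lay mostly within the range. Of 7 that passed 6 lay within the range in both designs, against 2472 of all 10843 spliced models. None of the 7 was below in both, where the share of all models was 8.64%. Cerebellum was lowest for most in the splice junction design. Npas4 had 132 in whole brain, against 50.2 in cerebellum, 347 in cortex and 828 in olfactory bulb in the splice junction design. Fos had 185 in whole brain, against 191 in cerebellum, 446 in cortex and 898 in olfactory bulb, so that whole brain was level with cerebellum, and Arc had 223 in whole brain, against 68.6 in cerebellum, 876 in cortex and 440.1 in olfactory bulb. For the 8 that passed in the splice junction design the median difference from the mean of the subregions was -0.78, against 0.06 over all spliced models that passed there.

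Single exon gene models were kept apart, and in them whole brain was low far more often than high. Of 528 that passed in both designs, 2 (0.379%) were at least 2-fold above the highest subregion and 133 (25.2%) at least 2-fold below the lowest, and without a minimum fold 41 (7.77%) were above and 243 (46.0%) below. Their median difference from the mean of the subregions was -0.60 with lncRNA capture and -1.49 with splice junction capture, against 0.59 and 0.03 for spliced models. Single exon models took 22.8% of the value outside spike-ins in whole brain in the lncRNA design, against 35.6% to 45.8% in the subregions, and 0.893% in the splice junction design, against 1.25% to 1.77%.

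The share below differed by position. Of the 226 single exon models that lie in an intron of a gene on the same strand, 100 (44.2%) were at least 2-fold below, of 200 that overlap a GENCODE exon 19 (9.50%), and of 102 elsewhere 14 (13.7%). In the lncRNA design alone, where 47.1% of 13914 single exon models were at least 2-fold below, the shares were 58.8% of 8446 intronic, 38.5% of 2925 exon-overlapping and 18.0% of 2543 other models, so that the exon-overlapping models and those elsewhere changed order. The other model at least 2-fold above, besides Olig1, was an unnamed one on chromosome 18 (chr18:68692060-68692227), with 121 in whole brain, against 5.25 in cerebellum, 8.42 in cortex and 29.0 in olfactory bulb in the lncRNA design. Thbd, the endothelial thrombomodulin gene, followed just under the limit of 1, at 0.93 on the log2(value + 1) scale in the splice junction design, and Rmrp, the RNA of the ribonuclease MRP, at 0.57. Furthest below was a model on chromosome 13 inside 4933413L06Rik (chr13:117713782-117714323), with 19.6 in whole brain, against 265 in cerebellum, 206 in cortex and 309.5 in olfactory bulb in the lncRNA design. It thus shares its locus with the spliced model that was furthest below.

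A model in an intron of Pcdh9, a neuronal protocadherin (chr14:93296169-93299279), was also among the 5 furthest below. It had 654 in whole brain, against 4669.6 in cerebellum, 5952 in cortex and 4317 in olfactory bulb in the lncRNA design. A230057D06Rik, a noncoding gene on chromosome 7, had 1.96 in whole brain, against 196 in cerebellum, 99.6 in cortex and 189 in olfactory bulb in the lncRNA design and 0.289 in whole brain, against 16.9 in cerebellum, 9.67 in cortex and 18.6 in olfactory bulb in the splice junction design, with a single fragment in whole brain in each.

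In the lncRNA design the intronic models could be set beside their own host genes. A total of 7069 intronic single exon models with a mean of at least 10 lay in 2355 protein-coding hosts that also passed. Over hosts, the median difference of whole brain from the mean of the subregions was -1.90 for the intronic models and 0.46 for the spliced host, and the intronic models were below their host for 2246 hosts (95.4%). The median of the intronic minus the host difference was -2.22. The same quantity for each subregion against the other subregions was 0.00 for cerebellum, -0.53 for cortex and 0.57 for olfactory bulb, so that whole brain stood further from the subregions in this measure than they did from each other. Intronic models of a gene share its transcripts and are not independent of each other.

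**Figure D5:**
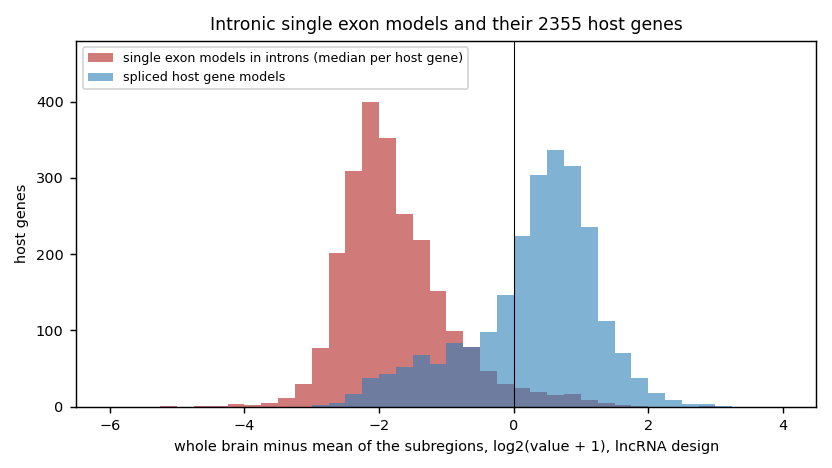
Number of host genes (vertical axis, 2355 in all) by the difference of whole brain from the mean of the 3 subregions in log2(value + 1) in the lncRNA design, for the spliced host gene models (blue) and for the median of the single exon models in their introns (red). The intronic models centre on -1.90 and the hosts on 0.46.

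In the splice junction design alone, 154 of 14446 spliced models that passed there were at least 2-fold above (1.07%) and 526 below (3.64%). Housekeeping genes give a scale for these values. Gapdh lay 1.08 above the highest subregion with lncRNA capture and 0.30 with splice junction capture. In both designs 6 of 10 housekeeping genes were above, against 16.0% of all models. Of the 10, 2 were at least 2-fold above in the lncRNA design, against 5.94% of all models. The other lists held few members that passed in both designs. Of all models 16.0% were above and 8.64% below in both designs. Of 5 oligodendrocyte precursor genes that passed 3 were above in both designs, of 3 choroid plexus and ependyma genes 0, of 1 skeletal muscle gene 1, of 1 peripheral nerve gene 0 and of 2 sex-linked genes 0, both of which were below. No pineal gene and no heart, liver or kidney gene passed. Of 6 host genes of small nucleolar RNAs, a list also collected after values had been seen, 3 passed and 2 were below in both designs.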

How the data were processed

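RNA of 8 tissues was depleted of ribosomal RNA, made into stranded libraries, captured and sequenced. The authors aligned reads to GRCm38 with TopHat2, assembled them with Cufflinks 2.2.1 guided by GENCODE and quantified the merged assembly with Cuffnorm 2.2.1. The deposited values are a signal, Cuffnorm's normalized fragments for each transcript and library, scaled between libraries by the authors. Here the transcripts of each of the 59297 gene models were summed (27520 spliced, 31685 single exon and 92 spike-ins). Sums of up to 20 steps were whole multiples of the value of 1 fragment in every library, within 0.1 of a step, which gave the fragments. Symbols came from same-strand exon overlap with GENCODE M21. Models needed a mean of at least 10 over the 4 brain tissues in each design, and were counted where log2(value + 1) of whole brain was at least 1 above the highest or below the lowest subregion in both designs. limma 3.58.1 in R 4.3.3 (with trend, 2 residual degrees of freedom) was run on the designs' means, and tested on simulated data. Python 3.11.15, NumPy 2.4.6 and pandas 2.3.3 were used. Promoters were from RefSeq.

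Named genes are the members of 27 lists (345 genes, 316 with a model of their own), the 15 spliced models with a symbol furthest above and below by the smaller of the designs, and the 5 single exon, noncoding and unannotated spliced models on each side. The rankings of models furthest above and below cover only those that passed the filter in both designs. The members and lists were chosen with earlier results of these data known. Alternatives were no filter, a mean of 50, a pseudocount of 10, quantile normalization, equal sums over spliced models, spliced transcripts alone, each design alone, other folds, limma without trend and leaving out each subregion. Counting limits cover counting error only. Some list members are counted but not reported here by name.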

Additional observations from a re-analysis of the deposited data

Results flagged for a closer look

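Cdk11b and Rheb went in opposite directions in the capture designs by at least 2-fold, with each design holding 1 library per tissue, and the difference between designs was not tested. Cdk11b, a cyclin-dependent kinase, was 1.17 above the highest subregion in the lncRNA design (66.5 in whole brain, against 23.6 in cerebellum, 25.3 in cortex and 29.0 in olfactory bulb) and at -1.39 from the lowest in the splice junction design (23.7 in whole brain, against 102.7, 63.6 and 74.9). Rheb, a GTPase that activates the kinase mTOR, was 1.19 above in the lncRNA design (144.8 in whole brain, against 63.0 in cerebellum, 56.1 in cortex and 38.7 in olfactory bulb) and at -1.40 in the splice junction design (34.1 in whole brain, against 111.6, 91.9 and 108.1). No other of the 10843 spliced models did so.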

How the results depend on the processing

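No paired analysis was possible because every library carries replicate number 1, so that the tissues share only 1 number. Counts are given as spliced above, spliced below, single exon above and single exon below, against 27, 138, 2 and 133. Without a filter they were 134, 231, 11 and 622, and with a mean of at least 50 they were 9, 62, 0 and 41. A pseudocount of 10 gave 1 single exon model above and 80 below. Quantile normalization gave 50 and 67 spliced models and 58 single exon models below. Equal medians of protein-coding models, chosen after seeing the data, gave 17 spliced and 1 single exon model above. Any difference gave 1731, 937, 41 and 243, and at least 4-fold gave 3, 23, 0 and 35. The lncRNA design alone gave 877, 808, 136 and 6555, and the splice junction design alone gave 154 and 526 spliced models and 1125 single exon models below. Leaving out 1 subregion gave 98 to 359, 156 to 258, 3 to 10 and 146 to 184, with the highest counts without cortex (359, 258, 10 and 184). The models above were 137 without cerebellum and 98 without olfactory bulb. limma called 0 models under every alternative except no filter, where it called 305 higher and 16 lower. Those include models at 0 in all subregions, whose spread is then 0. Of 602 values of the 51 named models under alternatives, 601 kept their direction. Gm5751 turned to 2.01 with spliced transcripts only, in the design where it was higher. The cause was not tested. Depth limits low values such as those of Hox genes, since 3 fragments correspond to 1.12 to 1.21 of value in the subregions of the splice junction design.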
